A study of Mus musculus with 7 samples.

Results

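Cluster 2 of the submitters' clustering held 430 of the 4290 cells that had RNA counts, in a study of myeloid cells from naive mice and from mice with Lewis lung carcinoma (LLC). Its members were all cells given cluster number 2 in the deposited cell annotation that also had a column in the RNA counts. Of these, 429 lay in the 6 libraries of blood, bone marrow and spleen, among 2373 counted cells, and 1 lay among the 1917 counted cells of the tumor tissue. The results below use those 429 cells, each set against the other counted cells of its own library.

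C57/Bl6 mice were either naive or carried LLC tumors, a transplanted mouse lung carcinoma line, and were sampled on day 14 of tumor growth. Cells positive for CD11b, an integrin of myeloid cells, were enriched by magnetic separation and stained with oligonucleotide-tagged antibodies. Single-cell RNA and surface-antibody counts were then read together (CITE-seq). The 6 libraries used here were naive blood, naive bone marrow, naive spleen and the same 3 tissues of tumor-bearing mice, with 1 library per group and no replicate. No statistical test was therefore run, and every interval below covers counting error alone, not the difference between animals.

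Monocytes are short-lived blood phagocytes made in the bone marrow and held in reserve in the spleen. Interferon-gamma, released mainly by T cells and natural killer cells, switches on guanylate-binding proteins and immunity-related GTPases, which act against intracellular microbes, and raises the class II molecules that present antigen to helper T cells. Type I interferons act through another receptor and switch on a partly shared set of antiviral genes, so single genes of these sets do not separate the 2 signals.

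RefSeq promoter sequence (build GRCm38.p6) was available for 6 of the 8 genes chosen to mark cluster 2, with Fam26f listed under the symbol Calhm6 and Mnda under Ifi211. A pair of short sequence patterns bears on these signals, and are spelled here as searched on both strands of the 250 bases before each start. The first is TTCNNNGAA, the palindrome known as the interferon-gamma-activated site (GAS). The second is GAAANNGAAA, a core of the interferon-stimulated response element (ISRE). The promoters of Fam26f, Gbp5 and Irgm2 are shown because they carry these letters in a marker of cluster 2, from base -250 to base -41 before the start, on the strand of the gene, with the matches in capitals.
Fam26f (chr10:34128013-34128222, minus strand): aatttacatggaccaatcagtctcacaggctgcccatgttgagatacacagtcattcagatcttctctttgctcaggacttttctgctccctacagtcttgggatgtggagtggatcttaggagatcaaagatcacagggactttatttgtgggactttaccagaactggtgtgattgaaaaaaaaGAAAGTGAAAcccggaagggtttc
Gbp5 (chr3:142496684-142496893, plus strand): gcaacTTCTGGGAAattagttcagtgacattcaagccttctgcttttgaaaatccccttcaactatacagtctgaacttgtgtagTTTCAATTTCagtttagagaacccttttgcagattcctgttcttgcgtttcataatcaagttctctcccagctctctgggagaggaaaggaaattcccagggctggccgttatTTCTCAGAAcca
Irgm2 (chr11:58214727-58214936, plus strand): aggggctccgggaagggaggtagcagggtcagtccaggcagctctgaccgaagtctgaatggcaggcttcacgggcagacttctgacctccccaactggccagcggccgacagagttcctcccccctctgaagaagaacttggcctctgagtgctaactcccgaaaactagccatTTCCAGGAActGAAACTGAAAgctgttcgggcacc

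No annotated exon lay in these windows, but the Gbp5 and Irgm2 windows overlapped the annotated span of the gene itself. Fam26f held an ISRE match from base -64 to base -55. Gbp5 held a GAS match on each side (bases -245 to -237 and -52 to -44) of an ISRE match read on the opposite strand (bases -165 to -156). Irgm2 held a GAS match at bases -75 to -67 just before an ISRE match at bases -64 to -55. Across all 27025 genes of the RefSeq table, 8.13% held a GAS match and 3.46% held an ISRE match in the same window. Of the 6 matched markers, 2 held the GAS letters and 4 the ISRE letters. A match is a run of letters and not a measured binding site.

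Of the 8 markers, 6 lay above the other cells in all 6 libraries, and Slc40a1 and Vcam1 did not. Levels are UMIs (unique molecular identifiers, 1 per captured RNA molecule) summed over cells and scaled to counts per 1000000 UMIs of those cells (CPM), and cluster 2 was defined from RNA of these same cells, so its marker levels are a description. Ifi47, an immunity-related GTPase, stood in cluster 2 at 416 CPM in naive and 501 CPM in tumor-bearing blood, at 368 and 845 CPM in bone marrow, and at 356 and 506 CPM in spleen. The other cells held 178, 108, 106, 135, 117 and 87.6 CPM of Ifi47 in the same order of libraries. All 6 cluster 2 values of Ifi47 therefore lay above all 6 values of the other cells.

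Gbp5, a guanylate-binding protein that promotes inflammasome assembly, stood in the same order of libraries at 24.2, 57.4, 10.0, 29.8, 28.6 and 90.7 CPM. The other cells held 9.06, 8.48, 8.06, 21.3, 7.94 and 10.7 CPM of Gbp5, so in naive bone marrow, where cluster 2 had 28 cells, the 2 values were close. Fam26f stood at 128, 228, 120, 378, 261 and 330 CPM, against 76.3, 76.3, 51.6, 67.7, 97.2 and 87.1 CPM in the other cells. Irgm2, a regulatory member of the immunity-related GTPases, ran from 44.1 CPM in tumor-bearing blood to 109 CPM in tumor-bearing bone marrow, and from 17.2 to 32.9 CPM in the other cells. Slfn1, a Schlafen family gene, ran from 297 CPM in tumor-bearing spleen to 585 CPM in tumor-bearing blood, above the other cells of every library (163 to 251 CPM). Mnda, a nuclear sensor of the PYHIN family, ran from 217 to 378 CPM, against 101 to 125 CPM in the other cells. Members of the PYHIN and guanylate-binding families have close paralogs, so reads of 1 member may have been counted for another.

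**Figure D1:**
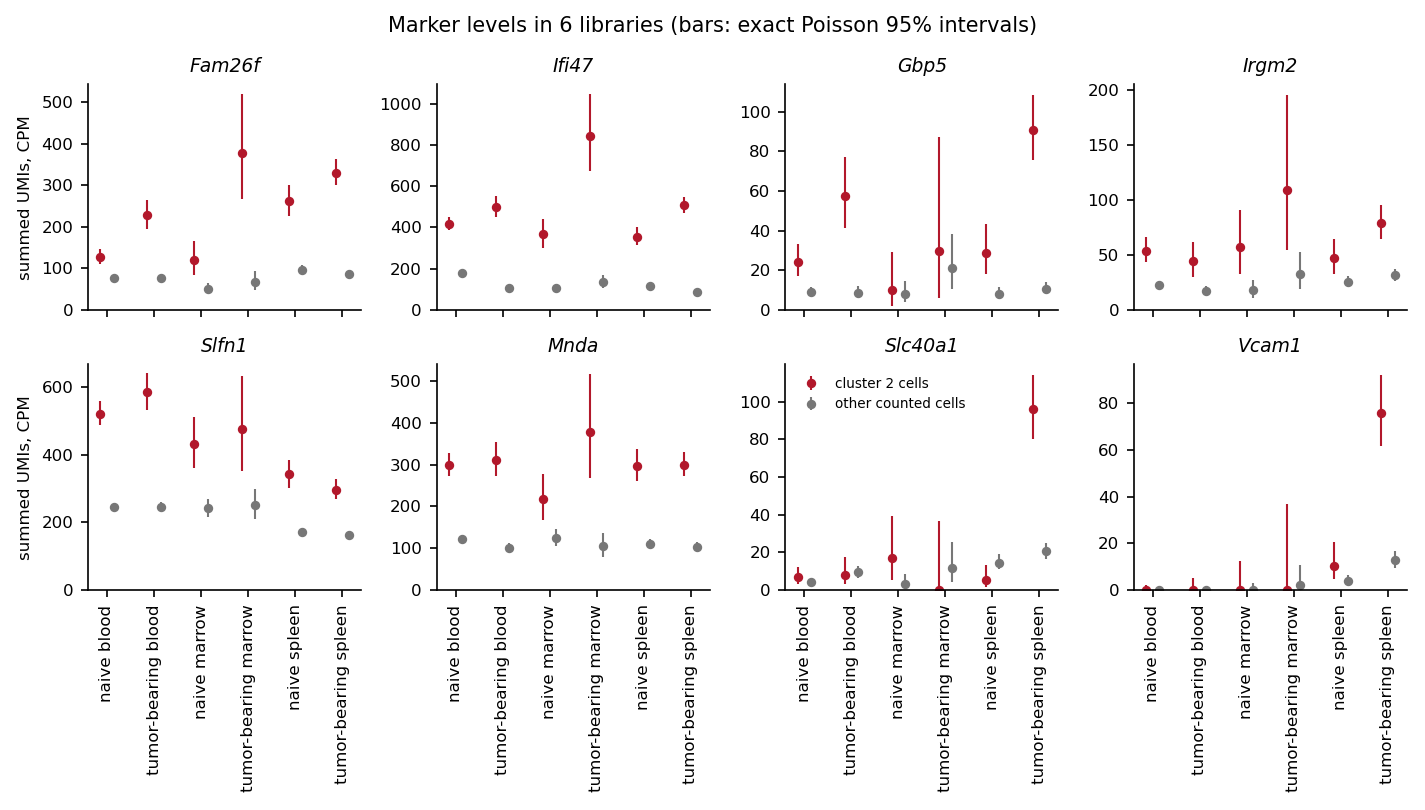
Level of the 8 marker genes in each of 6 libraries, as CPM of summed UMIs, for cluster 2 cells and for the other counted cells of the same library, with exact 95% Poisson intervals as bars. Cluster 2 lies above the other cells in all 6 libraries for Ifi47, Fam26f, Irgm2, Slfn1, Mnda and Gbp5, with overlapping bars for Gbp5 in both bone marrow libraries, while Vcam1 and Slc40a1 stand out in cluster 2 of tumor-bearing spleen, at 75.8 and 95.9 CPM.

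Vcam1, an adhesion molecule of splenic red pulp macrophages, and Slc40a1, the iron exporter ferroportin, marked few cells of cluster 2. Vcam1 had no UMI in cluster 2 of either blood or either bone marrow library, 8 UMIs in naive spleen and 102 UMIs in tumor-bearing spleen. Slc40a1 had 11 UMIs in naive and 6 in tumor-bearing blood, 5 and 0 in bone marrow, and 4 and 129 in spleen. In tumor-bearing spleen, 3 of the 128 cluster 2 cells held 88 of the 102 Vcam1 UMIs and 100 of the 129 Slc40a1 UMIs. The same 3 cells held 97 of 103 UMIs of C1qa and 98 of 104 of C1qb, which encode complement C1q chains of tissue macrophages, and all 31 UMIs of Fcna, a ficolin. Each of the 3 also held UMIs of Spic, the transcription factor of red pulp macrophages, and of Mrc1, a mannose receptor, whereas Vsig4 was at 0 in cluster 2 of all 6 libraries. The remaining 125 cells stood at 10.8 CPM of Vcam1, 22.3 CPM of Slc40a1 and 4.62 CPM of C1qa. The 451 other cells of that library held 12.7, 20.4 and 8.62 CPM of these genes. In naive spleen cluster 2 stood at 10.4 CPM of Vcam1 and 5.20 CPM of Slc40a1, against 3.83 and 14.5 CPM in the other cells.

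Over a list of 14 red pulp and resident macrophage genes, the 3 cells held 304, 125 and 50 UMIs, and the next highest cluster 2 cell of that library held 9. Gbp2 stood at 568 CPM in all 128 cells of tumor-bearing spleen and at 575 CPM without those 3, and Ifi47 at 506 and 518 CPM. The levels of Gbp2 and Ifi47 were thus as high without the cells that held most of the Vcam1 and Slc40a1.

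**Figure D2:**
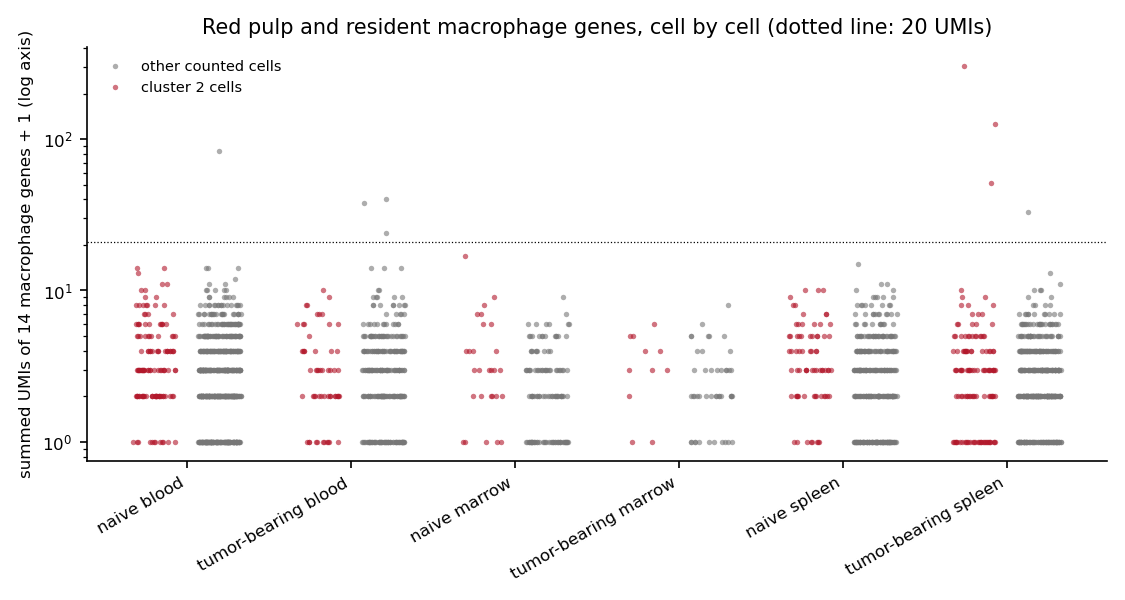
Summed UMIs of 14 red pulp and resident macrophage genes in each cell, plus 1, on a log axis, by library, for cluster 2 cells and the other counted cells, with a dotted line at 20 UMIs. In tumor-bearing spleen 3 cluster 2 cells stand above the line, at 304, 125 and 50 UMIs, and no other cluster 2 cell of the 6 libraries does.

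The cells of cluster 2 carried monocyte genes. Of 12 monocyte identity genes, none was called against the other cells in naive blood, tumor-bearing blood or naive spleen and 1 was called higher in tumor-bearing spleen. Csf1r, the receptor for macrophage colony-stimulating factor, ran from 598 to 825 CPM in cluster 2 and from 505 to 806 CPM in the other cells. Ly6c2, a marker of classical monocytes, stood at 2219 CPM in naive and 2152 CPM in tumor-bearing blood, 3004 and 2752 CPM in bone marrow, and 1799 and 2291 CPM in spleen. The other cells of each library held less Ly6c2, from 988 to 2251 CPM. Ly6c2 was past 2-fold in tumor-bearing blood and tumor-bearing spleen. Without cells that held markers of another type, defined below, 0 of 13 classical monocyte genes were called higher in naive or tumor-bearing blood. In each spleen library 1 of the 13 was called higher. The list's median log2 ratios were 0.11 and -0.02 in naive and tumor-bearing blood, and 0.27 and -0.07 in spleen. Ly6c2 was thus not past 2-fold in tumor-bearing blood in that set. Ccr2, the receptor by which monocytes leave the bone marrow, ran from 694 CPM in tumor-bearing spleen to 1884 CPM in naive bone marrow.

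On the lists of other cell types, some members had no UMI in cluster 2 and others were measured. Zbtb46, of conventional dendritic cells, and Siglech, of plasmacytoid dendritic cells, had no UMI in any of the 6 libraries, and Cd3e, of T cells, had 1.30 CPM in naive spleen and none elsewhere. Of 8 plasmacytoid dendritic cell genes 2 were measured in each blood and spleen library, Bst2, which interferon also induces, at 403 to 610 CPM and Tcf4 at 94.4 to 112 CPM, against 237 to 302 and 68.6 to 81.2 CPM in the other cells. Of 12 conventional dendritic cell genes 4 to 6 were measured, H2-Eb1 of the class II genes among them. Of 15 T and NK cell genes at most 1 was measured, with a summed level of 23.4 to 204 CPM in cluster 2 and 9.27 to 33.4 CPM in the other cells. Ccl5 made up most of the highest of these sums. Flt3, a receptor of dendritic cells and progenitors, ran from 0 to 28.6 CPM. Igkc, on the B cell list, stood at 15.5 and 6.67 CPM in naive and tumor-bearing blood, and at 88.3 and 105 CPM in spleen. The other cells held 81.1, 64.1, 89.0 and 101 CPM of Igkc in the same order. Neutrophil transcripts were present: S100a8 ran from 655 CPM in naive spleen to 2514 CPM in tumor-bearing bone marrow, against 478 to 3332 CPM in the other cells. Retnlg ran from 32.5 to 351 CPM, against 76.3 to 605 CPM.

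Cluster 2 made up 132 of 814 counted cells of naive blood (16.2%, exact 95% binomial interval 13.7 to 18.9) and 57 of 354 of tumor-bearing blood (16.1%, 12.4 to 20.4). It made up 28 of 153 cells of naive bone marrow (18.3%, 12.5 to 25.4) and 11 of 57 of tumor-bearing bone marrow (19.3%, 10.0 to 31.9). In naive spleen it held 73 of 416 cells (17.5%, 14.0 to 21.6) and in tumor-bearing spleen 128 of 579 (22.1%, 18.8 to 25.7). The intervals of all 6 libraries overlapped. Over all annotated cells, with or without counts, the tumor-bearing bone marrow share was 11 of 95 (11.6%) and that of naive bone marrow 15.1%. In the tumor tissue, by contrast, cluster 2 held 1 of 1917 cells (0.052%, 0.0013 to 0.290). Interferon genes that helped define the cluster differed between these libraries, so no direction is read from the shares.

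RNA depth was alike across the sets compared. Cluster 2 cells had a median of 9613 to 12561 UMIs by library and the other cells 9687 to 12440. Cluster 2 summed to between 100649 and 1612339 UMIs per library. Median mitochondrial shares were 2.56% to 3.06% in cluster 2 and 2.91% to 3.63% in the other cells. No cluster 2 cell shared its barcode with a cell of another library, against 2 such barcodes in the whole series. At coarser clustering the boundary moved: 427 of the 430 cells sat inside a cluster of 2311 cells at resolution 0.2, but 235 (54.7%) were the most in 1 cluster at 0.3 and 310 (72.1%) at 0.4. From 0.5 to 0.9 between 383 and 428 sat together, in clusters of 455 to 527 cells.

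Within blood and spleen, 28 of 4980 genes measured in all 4 libraries were at least 2-fold higher in cluster 2 than in the other cells of each library (0.562%), and none was at least 2-fold lower in all 4 (0%). A gene counted as measured with at least 30 UMIs in the 2 cell sets together and 20 CPM in one. Of the 28 genes, 9 were on a list of type I interferon response genes, 6 on a list of PYHIN genes and 5 on a list of GTPases inducible by interferon-gamma. Pydc3 and Pydc4, also among the 28, are listed in RefSeq as Ifi208 and Ifi213, which are symbols of the PYHIN list. The counts of measured PYHIN genes here and below were made by symbol and leave both out. None of the 28 was on the lists of monocyte identity, of classical or non-classical monocytes, or of MHC class I or class II presentation. The proposed name, interferon-gamma-type monocytes, was borne out only in part by the interferon genes. Of genes measured in all 4 libraries, 9 of the 26 type I response genes, 5 of the 10 GTPases and 6 of the 7 PYHIN genes were among the 28. The monocyte part of the name rests on the levels of Csf1r, Ly6c2 and Ccr2 given above and was not tested. Those levels come from the same cells' RNA that defined the cluster, which is called here by its number.

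Of these 28 genes 22 had a promoter in the RefSeq table, and 14 of the 22 (63.6%) held the ISRE letters shown above and 3 (13.6%) the GAS letters. Of 11 matched GTPases, 10 held the ISRE letters and 7 the GAS letters. The 11 matched PYHIN promoters held the ISRE letters in 9 cases and the GAS letters in none, and the 5 matched class II promoters held GAS letters in 1 case and ISRE letters in none.

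Gbp2, a guanylate-binding protein, stood in cluster 2 at 152 CPM in naive and 283 CPM in tumor-bearing blood, and at 166 and 568 CPM in spleen, against 50.8, 51.1, 38.1 and 54.7 CPM in the other cells. The ratio was 2.99 in naive blood (exact 95% counting interval 2.54 to 3.51), 5.54 in tumor-bearing blood (4.53 to 6.76), 4.37 in naive spleen (3.41 to 5.60) and 10.4 in tumor-bearing spleen (8.98 to 12.1). The other cells spanned a narrower range of Gbp2 levels than cluster 2. Isg15, a ubiquitin-like protein of the antiviral response, stood at 636, 665, 383 and 590 CPM in cluster 2 in the same order and at 217, 157, 138 and 138 CPM in the other cells. Its ratio was 2.93 (2.71 to 3.16), 4.25 (3.76 to 4.79), 2.78 (2.40 to 3.22) and 4.27 (3.83 to 4.75).

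Phf11d, an interferon-inducible gene with a PHD finger, stood at 110, 68.1, 65.0 and 52.8 CPM in cluster 2 and at 32.1, 21.5, 15.9 and 9.53 CPM in the other cells, and had the largest ratio of the 28 when genes were ranked by their weakest library. Ifit3, which binds in a complex that blocks viral RNA, stood at 256, 214, 177 and 196 CPM against 109, 67.3, 49.3 and 25.9 CPM. Gbp2 stood higher in the tumor-bearing than in the naive library of both tissues, whereas Ifit3 did so in spleen and not in blood. Ly6a, the surface antigen Sca-1, stood at 60.8, 174, 49.4 and 58.7 CPM against 24.7, 47.4, 19.2 and 22.5 CPM, and was highest in tumor-bearing blood. Rtp4, Oas3, Herc6, Oasl1, Pydc3 and Ifi205 completed the 14 leading genes, each with a log2 ratio above 1 in all 4 libraries.

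**Figure D3:**
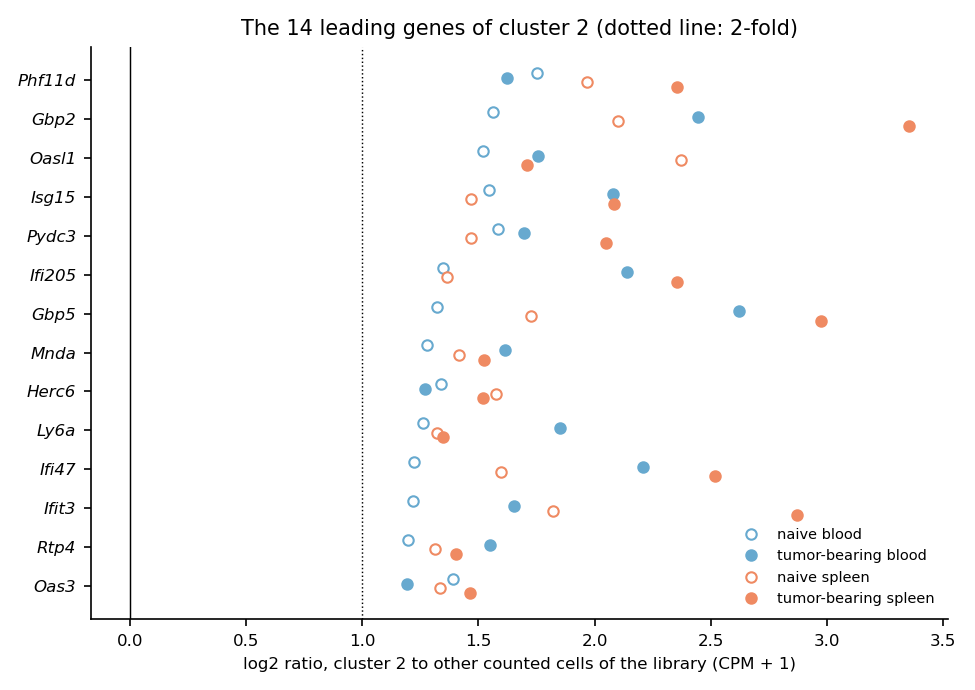
Log2 ratio of cluster 2 to the other counted cells of the same library for the 14 genes whose weakest ratio was largest among the genes higher in all 4 blood and spleen libraries, after adding 1 CPM, with a dotted line at 2-fold. All points lie right of the line, and Gbp2 in tumor-bearing spleen (a ratio of 10.4) lies farthest right.

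As a group, the GTPases were higher in 6 of 10 measured members in naive blood (where 1.27% of all measured genes were higher), 11 of 11 in tumor-bearing blood (2.22%), 8 of 10 in naive spleen (1.62%) and 12 of 12 in tumor-bearing spleen (2.12%). The list's median log2 ratio was 1.14, 1.84, 1.42 and 2.13 in that order, while that of all measured genes was -0.04, -0.03, -0.01 and -0.03. The type I interferon genes were higher in 15 of 26, 17 of 26, 22 of 27 and 19 of 26 members. Of 7 measured PYHIN genes, 6 were higher in each of the 4 libraries. Without cells that held at least 20 UMIs of macrophage, neutrophil, B cell or T and NK cell markers (3 to 11 cluster 2 cells per library, a check chosen after the data were seen), the GTPases were higher in 7 of 10, 10 of 10, 7 of 10 and 12 of 12 members, and 6 of 7 PYHIN genes were higher in each library. S100a8, S100a9 and the immunoglobulin genes Igkc, Ighm, Ighd and Iglc2 did not count as markers there, so cells rich in them alone were kept.

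In naive bone marrow, where 2.38% of 5255 measured genes were higher and 5.54% lower, cluster 2 had 28 cells. There 5 of 8 GTPases were higher with a median of 1.35, as were 22 of 24 type I interferon genes and 3 of 7 PYHIN genes. Tumor-bearing bone marrow, with 11 cells of cluster 2, was given levels only.

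The class II presentation genes gave another pattern. None of 7 was higher in cluster 2 in naive blood or naive spleen, but 5 of 7 were in tumor-bearing blood and 3 of 7 in tumor-bearing spleen. Their summed level in cluster 2 was 4480 CPM in naive and 13494 CPM in tumor-bearing blood, and 3436 and 8173 CPM in spleen, against 4950, 3935, 4845 and 4001 CPM in the other cells. Class I genes were called higher in at most 1 of 16 members in blood and spleen. Over a list of interferon-gamma receptors, kinases, transcription factors and inhibitors, 0 of 15 members were higher in naive and 4 of 16 in tumor-bearing blood, and 1 of 15 and 4 of 16 in spleen.

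The lower genes were fewer and varied between libraries. Genes of non-classical monocytes, the patrolling subset, were lower in cluster 2 in 3 of 11 measured members in naive blood (where 0.453% of all measured genes were lower), 4 of 12 in tumor-bearing blood (1.33%), 1 of 10 in naive spleen (0.91%) and 0 of 11 in tumor-bearing spleen (0.381%). Eno3, the muscle-type enolase counted on that list, and Fyn, a Src family kinase, were lower in 3 of the 4 libraries and no gene was in all 4.

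When each cell was thinned to 5000 UMIs, Ifi47 was detected in 80.9% of cluster 2 cells of naive and 84.2% of tumor-bearing blood, and in 75.7% and 88.9% of those of spleen, and in 38.6%, 29.0%, 32.0% and 27.6% of the other cells. Without thinning the naive blood shares were 93.9% and 55.4%. Gbp5 was detected in 9.16%, 24.6%, 14.3% and 31.7% of thinned cluster 2 cells and in 1.75% to 4.17% of the other cells, and without thinning in 33.3% of cluster 2 cells of tumor-bearing blood and 45.3% of those of tumor-bearing spleen. Cluster 12, whose cells held 10324 to 29799.5 CPM of the neutrophil gene S100a8, gave a background of 3 of 18 cells (16.7%) for Ifi47 and 0 of 18 for Gbp5 in tumor-bearing spleen, where its median depth was 7046 UMIs against 10362.5 in cluster 2. With 7 to 18 thinned cells of cluster 12 per library, that background was itself uncertain.

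Cluster 2 differed from cluster 0 in its interferon genes, and from cluster 4 also in the genes that separate classical from non-classical monocytes. Clusters 1 and 6 had profiles closer to cluster 2, with Pearson's r of 0.980 and 0.977 across 9987 genes, and were not compared. The r was 0.974 for cluster 0, 0.966 for cluster 4 and 0.948 for cluster 16. Whether the differences below hold against clusters 1 and 6 was not tested. Compared with cluster 0 (200 cells of naive blood), 164 genes were higher and 26 lower in naive blood (3.08% and 0.489% of 5320). The higher and lower shares were 4.04% and 2.23% in tumor-bearing blood, 3.06% and 1.27% in naive spleen, and 3.93% and 1.75% in tumor-bearing spleen. All 26 measured type I interferon genes and 9 of 10 GTPases were higher than in cluster 0 in naive blood, and 21 of 26 and 12 of 12 in tumor-bearing spleen. Class II genes were higher in 4 of 6 members in naive and 6 of 7 in tumor-bearing blood, and likewise in 4 of 6 and 6 of 7 members in spleen. Isg15 stood at 636 CPM in cluster 2 and 66.0 CPM in cluster 0 of naive blood. The class II chain Cd74 stood at 4788 CPM against 527 CPM in tumor-bearing spleen. Mmp8, a neutrophil collagenase, was lower than in cluster 0, at 65.7 against 138 CPM in naive blood and 71.4 against 232 CPM in tumor-bearing spleen.

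Compared with cluster 4, 252 genes were higher and 280 lower in naive blood (4.59% and 5.1% of 5493). Of the classical monocyte genes 10 of 13 were higher in cluster 2, and of the non-classical ones 13 of 14 were lower. Ly6c2 stood at 2219 CPM against 643 CPM in cluster 4. Nr4a1, which non-classical monocytes need to develop, stood at 148 CPM against 591, and Ace, the angiotensin-converting enzyme, at 109 against 666. The higher and lower shares were 4.23% and 5.46% in tumor-bearing blood, 3.68% and 3.56% in naive spleen, and 4.67% and 2.9% in tumor-bearing spleen. The non-classical genes were lower in 14 of 14, 10 of 12 and 10 of 14 members there. Of the GTPases, 9 of 10, 9 of 10, 7 of 9 and 12 of 12 were higher in the 4 libraries. Class II genes were higher in 7 of 7 members in tumor-bearing blood and 6 of 7 in tumor-bearing spleen, and in none of 6 and none of 7 in the naive libraries.

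Cluster 16, with 35 cells in naive blood, held more of both interferon responses than cluster 2. Against it, 330 genes were higher and 201 lower in cluster 2 (6.3% and 3.84% of 5239), and 20 of 28 type I interferon genes, 8 of 10 GTPases and 5 of 7 PYHIN genes were lower. Ifit2 stood at 75.7 CPM in cluster 2 and 690 CPM in cluster 16, and Ifi47 at 416 and 1308 CPM. The gap was narrower for Irgm2 (54.0 against 81.1 CPM) and Slfn1 (522 against 806 CPM), which did not reach 2-fold.

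The tumor-bearing and naive libraries addressed what a growing tumor at a distant site goes with in these cells. In blood, cluster 2 cells of the tumor-bearing library held more class II RNA, more Socs1 and more Fcgr4, and less Apoe and Upb1, than those of the naive library. The 2-fold rule called 82 of 5411 measured genes higher (1.52%) and 78 lower (1.44%). The counting interval lay wholly past 2-fold for 14 of the higher and 3 of the lower genes. Among the other cells 30 of 5315 genes were higher (0.564%) and 9 lower (0.169%). The other cells summed to more UMIs, and the counts of genes are not read against each other.

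H2-Eb1, a class II beta chain, stood at 217 CPM in cluster 2 of naive blood and 1223 CPM in tumor-bearing blood, a ratio of 5.63 (95% counting interval 4.97 to 6.39). H2-Ab1 stood at 429 and 1789 CPM (4.17, 3.80 to 4.58), H2-Aa at 527 and 2022 CPM (3.84, 3.53 to 4.18) and Cd74, the invariant chain that escorts class II molecules, at 2692 and 7567 CPM (2.81, 2.70 to 2.93). In the other cells the same 4 genes had ratios from 0.757 to 0.908. All 7 measured class II genes had a log2 ratio above 0 in cluster 2 and 4 were called, with a median of 1.49, whereas none was called in the other cells, with a median of -0.28. The median over all measured genes of cluster 2 was 0.03. That the 2 cell sets differ in this response was not tested, with 1 library per group. Class II and GTPase levels went together across cluster 2 cells of tumor-bearing blood (Spearman's rho 0.458) but hardly in naive blood (0.066). GTPase RNA marked cluster 2, so cells high in both may have been placed there and not among the other cells. For class II genes the other cells are therefore no independent comparison.

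Class II levels were uneven between cells. Per cell, cluster 2 had a median of 9.65 class II UMIs per 10000 UMIs in naive blood and 17.5 in tumor-bearing blood, and the 90th percentile was 138 and 434. H2-Aa was detected in 25.2% of thinned cluster 2 cells in naive blood and 49.1% in tumor-bearing blood, against 27.4% and 21.7% of the other cells and 0 of 8 and 1 of 8 cells of cluster 12 (median depths of 8791 and 4987 UMIs). Without thinning the cluster 2 shares of H2-Aa were 35.6% and 56.1%. One cluster 2 cell of tumor-bearing blood held 33 of the 34 Cd79a UMIs, a B cell receptor gene, and 1 cell held 143 of the 145 Ccl5 UMIs, a chemokine of T and NK cells. Without the cells that held markers of another type, 4 of 7 class II genes were still higher, with a median of 1.41.

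Of 16 genes on the list of interferon-gamma receptors, kinases, transcription factors and inhibitors, 2 were higher in blood, Socs1 and Socs3. Socs1, the feedback inhibitor of JAK kinases, stood at 13 CPM in naive and 60.1 CPM in tumor-bearing blood (ratio 4.61, 2.69 to 8.15), with a UMI in 18 of 132 and 23 of 57 cells. Socs3, the inhibitor of interleukin-6 family receptors, stood at 38.5 and 124 CPM (3.23, 2.32 to 4.53), and had a ratio of 1.68 in the other cells. Gbp4 rested on 9 and 21 UMIs (5.58 and 28.0 CPM, ratio 5.02, 2.21 to 12.5), and Gbp5 had a ratio of 2.37 (1.5 to 3.76). Gbp2 had a ratio of 1.86 (1.54 to 2.25) and was not called. Over the GTPase list 2 of 11 members were called higher and 10 lay above 0, with a median of 0.47 and a summed level of 1328 CPM in naive and 1850 CPM in tumor-bearing blood. The type I interferon list had no called member of 26, with a median of -0.14, and the PYHIN list none of 7.

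Fcgr4, an activating Fc receptor of non-classical monocytes, stood at 49.6 and 144 CPM (ratio 2.91, 2.16 to 3.93), against a ratio of 1.41 in the other cells. Ly6a stood at 60.8 and 174 CPM (2.86, 2.18 to 3.75). Lrg1, a secreted glycoprotein of the acute-phase response, had a ratio of 6.96 in cluster 2 and 7.46 in the other cells, and Vcan, a matrix proteoglycan of classical monocytes, 2.95 and 4.06. Those 2 genes thus stood higher in tumor-bearing blood in both cell sets. Of 10 measured non-classical monocyte genes 3 were higher, with a median of 0.46, against 1 of 12 and a median of 0.14 in the other cells.

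Neutrophil genes in cluster 2 of blood were higher in none and lower in 1 of 7 members, with a summed level of 2509 CPM in naive and 2637 CPM in tumor-bearing blood, and neutrophil granule genes were higher in 1 of 11. Without the cells with markers of another type, 2 of 4 neutrophil genes (median 1.07) and 3 of 9 granule genes (median 0.72) were higher, as were 3 of 10 non-classical genes. Of the neutrophil genes, 7 of 8 were higher in the other cells. The part of these transcripts in the other differences was not tested.

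Upb1, an enzyme of pyrimidine breakdown, had 38 UMIs in 25 cells of cluster 2 in naive blood and 0 in tumor-bearing blood, and was at least 5.88-fold lower taking a floor of 3 UMIs in that library. Apoe, a lipid carrier, stood at 3244 and 1519 CPM, 2.14-fold lower (2.0 to 2.28), and was 1.92-fold lower in the other cells. Lpl, lipoprotein lipase, was 3.04-fold lower. Of 9 measured lipid handling genes 4 were lower and none higher.

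In spleen the same contrast in cluster 2 gave higher GTPases and class II genes. The rule called 117 of 5553 measured genes higher (2.11%) and 56 lower (1.01%), and the interval lay past 2-fold for 22 of the higher and none of the lower ones. In the other cells 13 of 5416 genes were higher (0.24%) and 4 lower (0.0739%). Of the 22 genes, C1qa, C1qb, C1qc, Fcna, Vcam1, Slc40a1 and Cd81 had most of their UMIs in the 3 cells with macrophage markers described above. Without cells that held markers of another type, none of the 2 measured macrophage genes was called, against 4 of 7 with them.

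Gbp2 stood at 166 CPM in naive and 568 CPM in tumor-bearing spleen, a ratio of 3.42 (2.83 to 4.15), against 1.44 in the other cells. Gbp4 had 1 UMI in naive spleen and 67 UMIs in 36 cells of tumor-bearing spleen (1.30 and 49.8 CPM), a ratio of 38.4 with an interval from 6.65 to 1537, and a ratio of 1.08 in the other cells. Gbp5 stood at 28.6 and 90.7 CPM (3.17, 2.01 to 5.25). Iigp1, an immunity-related GTPase, had 1 UMI in naive spleen and 37 UMIs in 8 cells of tumor-bearing spleen. All 12 measured GTPases lay above 0 and 6 were called, with a median log2 ratio of 0.92 and a summed level of 1246 CPM in naive and 2307 CPM in tumor-bearing spleen. In the other cells none of 8 was called, with a median of 0.07. GTPase RNA marked cluster 2, so cells high in it may have been placed there and not among the other cells. For these genes the other cells are therefore no independent comparison.

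H2-Eb1 stood at 194 CPM in naive and 587 CPM in tumor-bearing spleen (3.03, 2.54 to 3.64), and Cd74 at 1877 and 4788 CPM (2.55, 2.41 to 2.70). Ciita, the transactivator that switches class II genes on, stood at 23.4 and 61.7 CPM (2.64, 1.57 to 4.67). Of 7 class II genes 5 were called and all lay above 0, with a median of 1.32. In the other cells none was called, with a median of -0.20, but as in blood those cells are no independent comparison for class II. Per cell, the 90th percentile of class II UMIs in cluster 2 was 83.1 per 10000 in naive and 269 in tumor-bearing spleen. H2-Aa was detected in 22.9% and 53.2% of thinned cluster 2 cells, and in 32.0% and 39.4% of the other cells, where its level was 599 and 515 CPM, so no order is read from those last shares. Without thinning the cluster 2 shares were 39.7% and 66.4%, and cluster 12 had H2-Aa in 3 of 10 and 2 of 18 thinned cells. Without the cells with markers of another type, 5 of 7 class II genes and 6 of 12 GTPases were higher, as with them.

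Type I interferon genes did not share this shift: none of 27 was higher and 1 was lower in spleen, with a median of -0.02. None of 7 PYHIN genes was called. All 16 measured class I genes lay above 0 in cluster 2 with a median of 0.35, but none reached 2-fold, and 7 of 15 lay above 0 in the other cells.

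**Figure D4:**
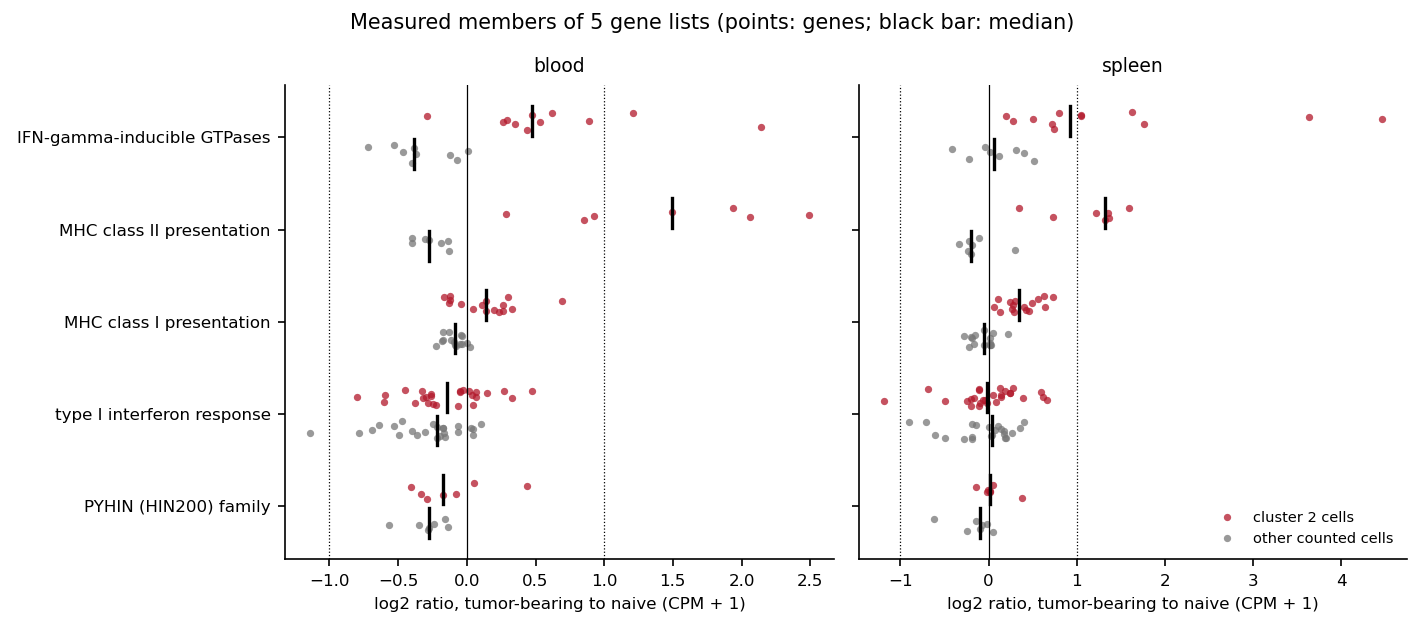
Log2 ratio of tumor-bearing to naive level (after adding 1 CPM) for each measured member of 5 gene lists, in blood and spleen, for cluster 2 cells and the other counted cells, with black bars at the medians and dotted lines at 2-fold. Class II genes of cluster 2 have medians of 1.49 in blood and 1.32 in spleen, those of the other cells -0.28 and -0.20, and the type I interferon genes of cluster 2 lie around 0.

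Serpina3g, a serine protease inhibitor, had 3 UMIs in naive spleen and 64 UMIs in 30 cells of tumor-bearing spleen (3.90 and 47.6 CPM, ratio 12.2, 4.0 to 60.8). Ifitm1, a membrane protein that restricts viral entry, stood at 11.7 and 84.0 CPM (7.19, 3.65 to 16.1), against a ratio of 1.91 in the other cells. Il18bp, the soluble trap for interleukin-18, had a ratio of 6.87 (2.17 to 34.9). Cd274, which encodes the checkpoint ligand PD-L1, had a ratio of 2.16. Neutrophil transcripts were higher as well: Retnlg stood at 32.5 and 182 CPM (5.61-fold) and S100a8 at 655 and 1521 CPM (2.32-fold), with ratios of 1.5 and 1.88 in the other cells. The neutrophil list was higher in 3 of 7 members (3 of 5 without the cells with markers of another type), with a summed level of 1988 CPM in naive and 3846 CPM in tumor-bearing spleen. Of 11 non-classical monocyte genes 3 were higher (median 0.58), and 2 of 10 (median 0.43) without those cells, against none of 10 (median 0.06) in the other cells. The part of either list in the other differences was not tested.

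Fos, an immediate early transcription factor, stood at 152 CPM in naive and 57.3 CPM in tumor-bearing spleen, 2.65-fold lower (1.97 to 3.59), and was 2.13-fold lower in the other cells. Flt3 was 3.49-fold (1.62 to 7.98) lower in cluster 2, and Dhrs3 and Dnaja3 were each 3.20-fold (1.52 to 7.10) lower. These rested on 11, 12 and 12 UMIs in tumor-bearing spleen, against 22 for each gene in naive spleen. Flt3 and Dhrs3 lost the call without the top cell. In the other cells the ratios of the 3 genes were 1.26, 0.631 and 1.01.

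The blood and spleen contrasts used different libraries. They had 17 higher genes in common, 20.7% of the 82 called in blood and 14.5% of the 117 called in spleen, and 8 lower genes, 10.3% of 78 and 14.3% of 56. The 17 were the class II genes H2-Aa, H2-Ab1, H2-Eb1 and Cd74, the GTPases Gbp4 and Gbp5, and Socs1, Fcgr4, Serpina3g, Ifitm1, Ace, Eno3, B4galt6, Myof, Pla2g16, Pafah1b3 and Acp5. Gbp4, Gbp5, Serpina3g and Eno3 lost the blood call without the top cell of each gene. Apoe and Dhrs3, a retinaldehyde reductase, were among the 8 lower genes, and Dhrs3 and Tle1 lost the spleen call without the top cell. After thinning to 5000 UMIs, 20 of the 82 genes higher in blood and 34 of the 117 in spleen were called again.

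GTPase and class II RNA were both found in nearly all cells of cluster 2, and class II levels were the more uneven between cells. Of its 132 cells in naive blood 1 had no GTPase UMI, and none lacked one in the other 5 libraries, against 61 of 682 other cells of naive blood. For class II, 1 cell of tumor-bearing blood and 1 of naive spleen had no UMI. Nearly all of the other cells held class II RNA as well. It was absent from 4 of 682 of them in naive and 5 of 297 in tumor-bearing blood, and from 2 of 343 and 4 of 451 in spleen. In tumor-bearing spleen the 10th and 90th percentiles per cell were 6.21 and 48.9 UMIs per 10000 for the GTPases and 4.43 and 269 for class II. The median per cell in cluster 2 was 11.2 UMIs per 10000 in naive and 15.1 in tumor-bearing blood, 11.2 and 25.2 in bone marrow, and 9.76 and 18.7 in spleen. The other cells ran from 2.61 to 3.54. In blood and spleen the tumor-bearing median lay above the naive one in cluster 2. Tumor-bearing bone marrow had 11 cells, fewer than the 20 set for a ratio. Of those, 7 held at least 20 UMIs of markers of another cell type, so no order is read for bone marrow.

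**Figure D5:**
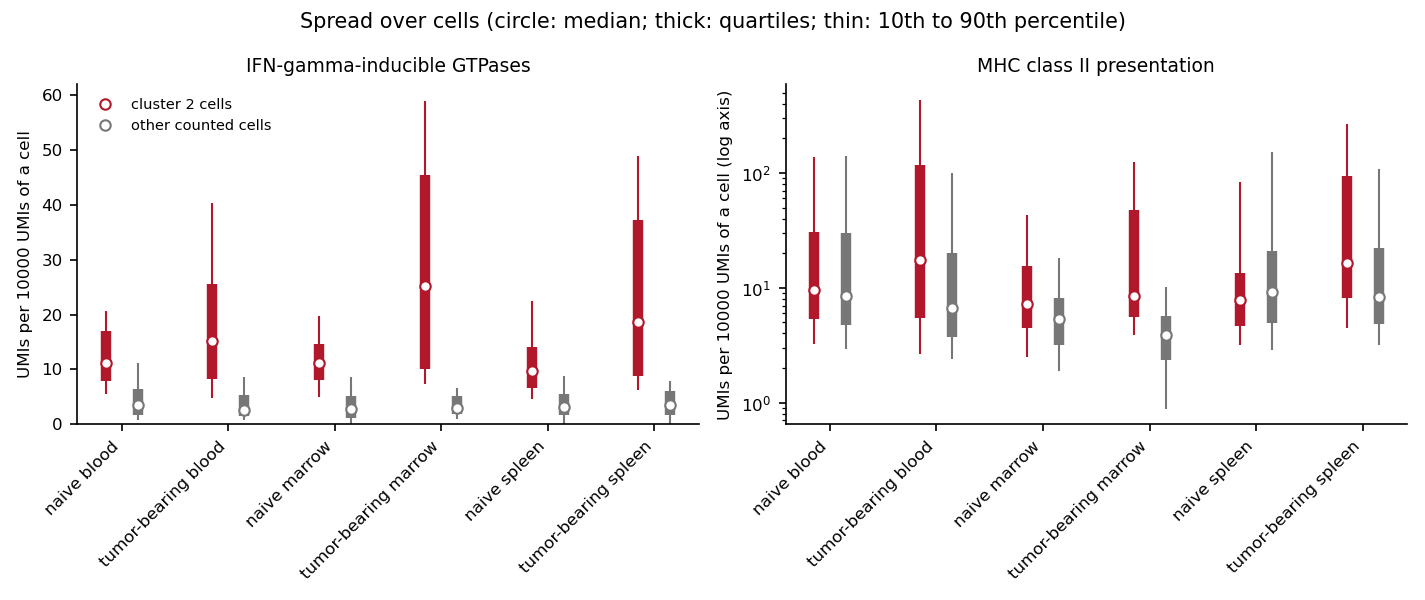
UMIs per 10000 UMIs of a cell for the GTPase list (linear axis) and the class II list (log axis), by library, with circles at the median, thick bars over the quartiles and thin bars from the 10th to the 90th percentile. GTPase medians of cluster 2 run from 9.76 to 25.2 and those of the other cells from 2.61 to 3.54, while class II ranges of the 2 cell sets overlap in each library.

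Across cluster 2 cells, Spearman's rho between GTPase and class II levels was 0.458 in tumor-bearing blood (57 cells) and 0.423 in tumor-bearing spleen (128 cells), and 0.066 in naive blood (132 cells) and -0.057 in naive spleen (73 cells). In the other cells it ran from 0.081 to 0.176 in the same 4 libraries. The cells of a point set share 1 library, and depth differs among them, so these values are descriptions. GTPase and type I interferon levels had a rho of 0.503, 0.476, 0.167 and 0.247 in naive blood, tumor-bearing blood, naive spleen and tumor-bearing spleen.

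Surface antibodies gave a second readout. That they did not enter the clustering was assumed, because its columns were named for the RNA neighbor graph. The sources used here do not state it. None of the 47 antibodies differed 2-fold between cluster 2 and the other cells in all 4 blood and spleen libraries, and Ly-6C was the antibody above 1 in all 4, at ratios of 1.0 to 1.12. CD115, the protein of Csf1r, had ratios of 0.915 and 0.841 in naive and tumor-bearing blood and of 1.05 and 0.765 in spleen. Sca-1, the protein of Ly6a, had antibody ratios of 0.896 to 1.09 over the 4 libraries, so its RNA difference was not seen at the surface. CD274 (PD-L1) had antibody ratios of 0.998 to 1.07. The antibody to class II (I-A-I-E) had a ratio to the other cells of 0.726 in naive and 1.70 in tumor-bearing blood, and of 0.907 and 1.29 in spleen. In cluster 2 it stood at 82.0 and 182 counts per 10000 antibody counts in naive and tumor-bearing blood, a ratio of 2.22, and at 124 and 194 in spleen, a ratio of 1.56. The other cells had ratios of 0.945 and 1.09. From the mean of the deposited log values the I-A-I-E ratio in cluster 2 was 1.38 in blood and 1.31 in spleen. Antibody depth differed between libraries: cluster 2 cells had a median of 2502 and 6757 antibody counts in naive and tumor-bearing blood. In spleen the medians were 2126 and 1784. The other cells had 2328, 5926, 2343 and 1604 in the same order. Whether this depth shaped the antibody ratios between libraries, here and below, was not tested.

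The antibody to CD16.2, the protein of Fcgr4, had a tumor-bearing to naive ratio of 1.69 in blood and 1.92 in spleen in cluster 2, and 1.71 and 1.21 in the other cells. Within cluster 2, class II RNA and the I-A-I-E antibody had a Spearman's rho of 0.341 in naive and 0.755 in tumor-bearing blood, and of 0.354 and 0.646 in spleen, over the cells of each library. For Ly6a RNA and the Sca-1 antibody the rho was 0.111 and 0.419 in blood and -0.016 and 0.136 in spleen.

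Spleen and blood were also set against each other within naive and within tumor-bearing mice, with the same libraries as above. In naive mice 96 of 5422 genes were higher in spleen (1.77%) and 43 lower (0.793%). With the trimmed mean of M-values as scaling the counts were 68 and 65. In the other cells 10 of 5358 genes were higher (0.187%) and 11 lower (0.205%). The interval lay past 2-fold for 2 genes each way in cluster 2. Tnfaip3, an inhibitor of NF-kappaB signaling, stood at 29.9 CPM in spleen and 6.20 CPM in blood (4.82-fold, 2.21 to 11.3). It rested on 23 and 10 UMIs and lost the call without the top cell. Retnlg was 4.32-fold lower in spleen. Retnlg was 2.22-fold higher in spleen in the other cells, 1 blood cell of cluster 2 held 90 of its 226 UMIs there, and without the cells with markers of another type its log2 ratio in cluster 2 was 0.066. No GTPase of 10, class II gene of 7 or type I interferon gene of 27 was called.

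In tumor-bearing mice 154 of 5551 genes were higher in spleen (2.77%) and 60 lower (1.08%), against 12 (0.221%) and 16 (0.295%) of 5430 in the other cells. The immediate early genes, which respond within minutes to signals and also to tissue handling, were lower in 7 of 10 measured members, and all 10 lay below 0, with a median log2 ratio of -1.19. Fos stood at 318 CPM in blood and 57.3 CPM in spleen, 5.55-fold lower (4.27 to 7.27), and was 5.03-fold lower in the other cells. Junb was 2.55-fold lower and Atf3 2.91-fold lower in cluster 2. In the other cells 3 of 10 were lower, with a median of -0.81, so the direction was not particular to cluster 2. In naive mice none of the 10 was called and all lay below 0, with a median of -0.61. Ly6a was 2.95-fold lower in spleen (58.7 against 174 CPM). The antibody to CD11b, the protein used for enrichment, was lower in spleen than in blood in both cell sets, with a spleen to blood ratio of 0.420 in naive and 0.451 in tumor-bearing mice in cluster 2, and of 0.375 and 0.423 in the other cells.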

How the data were processed

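RNA and antibody-derived tags of CD11b-enriched single cells were measured in 7 libraries with a 3' kit, per the labels' protocols, and processed with Cell Ranger on build mm10, per the submitters' processing notes. Cell filters, annotation and versions: not given in the sources used here. UMI counts deposited by the authors covered 25127 genes in 4290 cells. Further files held counts of 47 antibodies, the authors' normalized antibody values on a natural log scale (of 1 plus the counts per 10000), and a deposited cell table with clusters and, per the file headers, mitochondrial reads as a fraction. Clusters were the authors' own, and the file headers name them after the RNA graph. The 237 cells of the table without counts, none in cluster 2, were not used. No doublet caller was run.

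UMIs were summed over cells and scaled to CPM. Genes with at least 30 UMIs together and 20 CPM in one set were called at 2-fold. Log2 ratios used a pseudo-count of 1 CPM. Intervals were 95% exact (conditional binomial, Poisson, Clopper-Pearson), covering counting error alone, so that they understate the error where single cells hold most UMIs of a gene. The floor for 0 was 3 UMIs. Ratios needed at least 20 cells in a set. Scripts, tested on simulated data, used Python 3.11.15, numpy 2.4.6, scipy 1.17.1, pandas 2.3.3, matplotlib 3.10.9, R 4.3.3 and edgeR 4.0.16, the last for scaling factors alone.

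The genes named were the markers, the leading 14 genes, the 10 largest ratios each way of a contrast, and members of the lists. Others were named after their values were seen. The members, the lists and the rule were chosen with earlier results of these data known.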

Additional observations from a re-analysis of the deposited data

How the results depend on the processing

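Each group had 1 library, so no replicate could be left out and no replicate block fitted, and a model that takes the 3 tissues as blocks was not run. Shares stayed within their counting intervals and the antibody count at 0 under the alternatives run. Of the 152 leading and marker values, 150 stayed within their counting interval, and of 640 values of genes named in the 4 contrasts 593 did, 34 lay outside and 13 reversed. With a minimum of 10 UMIs and none on CPM, more low genes were called: 4 lower in all 4 libraries, 329 higher and 408 lower in blood (tumor-bearing against naive), 459 and 255 in spleen, and for spleen against blood 398 and 304 in naive and 577 and 253 in tumor-bearing mice. Without each gene's top cell, 52 were higher in blood (tumor-bearing against naive) and 65 lower in naive spleen against blood, a number that the trimmed mean of M-values also gave (65). Thinning to 5000 UMIs left 47 higher there. Counts alike in size did not hold the same genes: after thinning, 23 of the 28 genes higher in all 4 libraries were called again, but 20 of 82 higher and 17 of 78 lower in blood (tumor-bearing against naive) and 34 of 117 and 9 of 56 in spleen. The thinned sums hold fewer UMIs, and fewer genes pass the minimum. For the other settings the cause was not tested.

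Without cells that held markers of another type, an alternative chosen after the data were seen, log2 ratios turned for Cd79a (-0.25) and Ccl5 (-2.54) in blood (tumor-bearing against naive), C1qb (-0.38) and C1qc (-0.19) in spleen, Lrg1 (-1.20) and Retnlg (0.066) in naive spleen against blood, and Fcna (-1.32), C1qb (-0.20), Ccl5 (2.02) and Cd79a (2.26) in tumor-bearing spleen against blood. Without its top cell Ccl5 turned to -1.92 in blood and to 1.80 in spleen against blood, where Cd79a turned to 1.96. Depth limits genes under about 20 CPM, and many calls among the 2-fold genes rest on few UMIs.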
